A study of Mus musculus with 6 samples.

Results

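The nuclear-encoded subunits of the mitochondrial respiratory chain and ATP synthase were followed as mRNA in mouse microglia kept in vitro. Genes were taken by symbol, with the names looked up from Entrez identifiers: Nduf genes without the Ndufaf assembly factors, Uqcr, Cox4i, Cox5, Cox6, Cox7, Cox8 and Atp5 genes, the 4 Sdh subunits and Cyc1. Pseudogenes and genes under 10 counts summed over the 6 libraries were left out. This gave 83 genes of the 36528 identifiers measured: 37 of complex I, 4 of complex II, 9 of complex III, 16 of complex IV and 17 of complex V. Ndufa4 was counted with complex IV, where its protein is now placed.

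The respiratory chain sits in the inner mitochondrial membrane. Complexes I and II pass electrons from NADH and succinate to coenzyme Q, complex III passes them to cytochrome c and complex IV to oxygen. The proton gradient built by complexes I, III and IV drives ATP synthase, complex V. Most subunits are encoded in the nucleus and imported, and a few hydrophobic core subunits are encoded by mitochondrial DNA. Macrophages and microglia that sense bacterial lipopolysaccharide (LPS) are known to shift from respiration towards glycolysis, and this makes the chain a common readout of their activation.

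Poly(A) RNA was sequenced from 3 groups with 2 libraries in each. The untreated wild-type group carried no stated modification, the Cop1 KO group was untreated and carried a loxP label together with the knockout of Cop1, a ubiquitin ligase subunit, and the LPS group was wild type given LPS. Missing from the labels are the LPS dose and exposure time, the age of the animals, the Cre driver and whether the replicates were separate cultures. The p-values below therefore measure only the spread between these libraries, which may be technical.

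Library totals lay between 20568144 and 22553708 counts, and the genes studied held 0.609% and 0.615% of the counts in untreated wild type, 0.482% and 0.494% in Cop1 KO and 0.473% and 0.498% with LPS. Cop1 itself stood at 12.7 and 11.5 CPM (counts per 1e6 counts) in untreated wild type, 8.06 and 9.23 in Cop1 KO and 23.4 and 27.2 with LPS. All 7 microglial markers checked were detected in every library, with a summed level of 5040 and 5050 CPM in untreated wild type, 7940 and 7970 in Cop1 KO and 2770 and 2840 with LPS. The cultures differed in other cell types: 8 astrocyte markers summed to 705 and 711 CPM in untreated wild type, 40.7 and 44.8 in Cop1 KO and 810 and 817 with LPS. The 6 neuron markers summed to 58.3 and 58.4, 3.56 and 4.55, and 54.2 and 55.1 CPM in the same order, with Snap25 at 0 in 1 Cop1 KO library. The 6 oligodendrocyte lineage markers summed to 185 and 188, 97.7 and 101, and 124 and 132 CPM. Mbp carried most of the Cop1 KO sum at 89.0 and 92.8 CPM, above its 63.8 and 61.7 in untreated wild type. The other 5 were lower in Cop1 KO, and the median log2 fold change of the 6 was -3.32. Single markers also went against the astrocyte and microglial sums. Among astrocyte markers Aldh1l1 was higher in Cop1 KO and 7 were lower. Among microglial markers Aif1 and P2ry12 were higher with LPS and 5 were lower. The 4 proliferation markers summed to 235 and 247 CPM in untreated wild type against 58.3 and 63.3 in Cop1 KO and 48.3 and 49.4 with LPS. The part of these differences in the results below was not tested, and in bulk RNA fewer cells of a type and less RNA per cell cannot be told apart.

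Each result also depends on how the libraries are put on one scale. CPM values here use TMM factors, which were 1.192 and 1.19 in untreated wild type, 1.042 and 1.042 in Cop1 KO and 0.8057 and 0.8058 with LPS. A gene was called when its adjusted p in edgeR's quasi-likelihood test was under 0.05. A stricter count took the genes called in the same direction under 4 scalings, namely TMM, median of ratios, upper quartile and library size alone.

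On the per-length scale of the deposited nRPKM values, the highest group mean of a gene ranged from 0.242 to 344 over the 83 genes, with a median of 40.3. At 100 nRPKM or more in a group were 12 genes, and 6 stayed under 1 in every group. Cox4i1, the ubiquitous form of the regulatory subunit 4 of cytochrome c oxidase, led in untreated wild type at 238 and 238 nRPKM and in Cop1 KO at 293 and 283. Atp5b, the catalytic beta subunit of ATP synthase, came next in those groups at 221 and 217, and 178 and 178. With LPS the order was reversed in both libraries, with Atp5b at 350 and 338 and Cox4i1 at 323 and 300 nRPKM. This order is read within a library and no scaling between libraries moves it. Cox6b1 followed in untreated wild type at 166 and 164 nRPKM and Atp5a1 at 141 and 139, and with LPS Atp5a1 at 228 and 224 stood above Cox6b1 at 219 and 211. The most abundant subunit of complex III was Uqcrh, the hinge protein, at 72.8 and 77.5 nRPKM in untreated wild type, 80.1 and 80.5 in Cop1 KO and 105 and 102 with LPS. In complex II the 4 subunits lay close together in untreated wild type, from Sdhd at 47.6 and 46.3 to Sdhb at 61.3 and 60.1 nRPKM.

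Complexes differed in their share of the summed nRPKM of all 83 genes. Complex V held 26.7% in both untreated wild-type libraries, 24.3% and 24.4% in Cop1 KO, and 28.7% and 29.1% with LPS. Complex I held 29.4% in both untreated wild-type libraries, 30.6% and 30.5% in Cop1 KO, and 27.7% and 27.4% with LPS. The 3 groups did not overlap for either complex, and the order of the groups for complex V was the reverse of that for complex I. These are shares of 1 total, so a rise of 1 complex lowers the summed share of the others by construction. The summed CPM of complex I did not follow this order. It was 1410 and 1390 in untreated wild type, 1360 and 1320 in Cop1 KO and 1500 and 1410 with LPS. Complex III stayed between 12% and 12.2% in all 6 libraries.

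The genes with the least unique coding sequence had low levels. The deposited counts hold uniquely aligned reads of 50 bases, and many subunit genes have processed pseudogenes. For 36 of the 83 genes at least 1 window of 50 coding bases was found exactly in another annotated gene, and for 35 of them in a pseudogene. The 7 genes with under 20% unique windows had a median highest level of 0.942 nRPKM (range 0.251 to 12), the 13 genes at 20 to 80% one of 18.8, and the 63 genes at 80% or more one of 50.9. Across the 83 genes Spearman's rho was 0.41, given as a description since these genes are not independent. Atp5l and Atp5g2, subunit g and a c-ring gene of ATP synthase, had 0% unique windows and 26 and 21 counts over all libraries. Ndufb4, Atp5md, Ndufab1, Atp5g1 and Cox7c were also under 20%. How far reads lost in this way lower the counts was not tested, and these genes are not ranked against others. Some shared windows did not go with a low level in general, since Cox6c was 46.4% unique and reached 73.8 nRPKM, and Atp5b shares 16 windows. Low uniqueness was not found for every rare gene either, since Cox4i2, the lung-enriched isoform of subunit 4, had 100% unique windows and 19 counts.

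**Figure D1:**
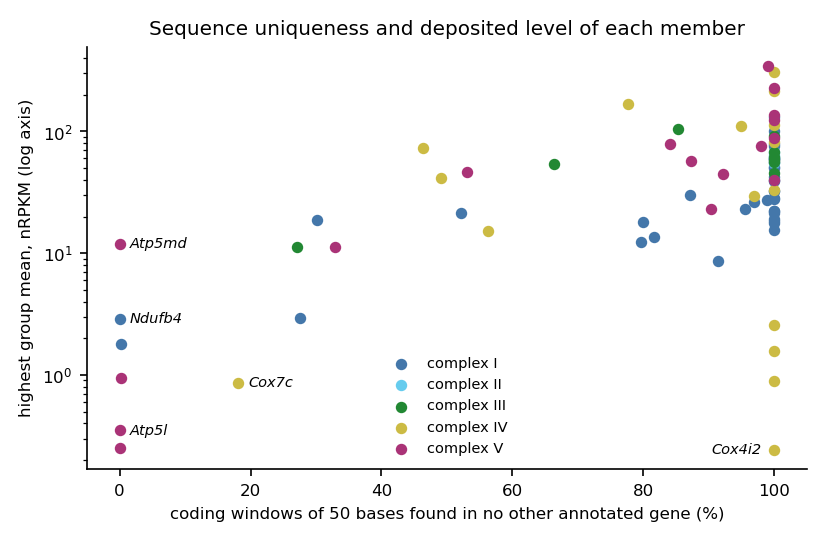
Share of coding windows of 50 bases found in no other annotated gene (x axis, %) against the highest group mean of the deposited nRPKM (y axis, log axis) for the 83 genes, coloured by complex. The 7 genes under 20% lie at 12 nRPKM or below, and the 63 genes at 80% or more have a median of 50.9.

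At the lower bound of the rule, Cox4i2 (19 counts), Atp5g2 (21), Atp5l (26) and Cox7c (54) were kept but did not pass the low-count filter, so 79 of the 83 genes were tested. Just outside it, Ndufa4l2 and Ndufb4b had 6 counts, Cox8b 5, Ndufb4c 1 and Cox8c and Cox7b2 none.

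Of the isoforms known from heart and skeletal muscle or testis, little was found. Cox6a1 made up 98.8% to 99.5% of its family's nRPKM, against 0.513% to 1.16% for the muscle form Cox6a2. Cox6b1 held 99.4% to 99.8% against 0.219% to 0.573% for the testis form Cox6b2, and Cox4i1 at least 99.9% against Cox4i2. In the c-ring family Atp5g3 took 98.8% to 99.4%. Given the low uniqueness of Atp5g1 and Atp5g2 stated above, this share does not rank the genes of that family. Cox6a2 had 23 and 19 counts in untreated wild type, 32 and 31 in Cop1 KO and 14 and 18 with LPS. It was called higher in Cop1 KO (log2 fold change 0.79 ± 0.34 SE, edgeR adjusted p = 0.039), but not under all 4 scalings.

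In Cop1 KO against untreated wild type, more subunit mRNAs were lower than higher. At TMM scaling 33 of the 79 tested genes were lower, 7 higher and 39 not called. Among all 15585 genes tested 58.4% were called, 30.3% lower and 28.1% higher. The median log2 fold change of the subunits was -0.09, beside -0.01 over all genes. Under all 4 scalings 19 subunits were lower and 1 higher, where 25.1% of all genes were lower and 14.9% higher. The excess of lower calls was absent with limma on log2(nRPKM + 1), which called 11 higher and 9 lower, DESeq2 called 9 lower, and without untreated wild-type replicate 2 the lower calls fell to 19. The median of the subunits minus that of all genes was -0.08, a difference that scaling factors cannot change by construction, and -0.02 without Cop1 KO replicate 2. By complex the calls were 14 lower and 4 higher in complex I, 2 lower in complex II, 3 lower in complex III, 6 lower and 3 higher in complex IV, and 8 lower and 0 higher in complex V.

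In complex V, 8 of the 15 tested subunits were lower in Cop1 KO and none was higher. Atp5b was at 612 and 602 CPM in untreated wild type, 451 and 450 in Cop1 KO and 869 and 838 with LPS. Cop1 KO was lowest, LPS highest, and no group overlapped another. The log2 fold change of Atp5b was -0.43 ± 0.03 (SE) in Cop1 KO (edgeR adjusted p = 3.2e-18) and 0.49 ± 0.03 with LPS (adjusted p = 3e-21). Atp5a1, the alpha subunit that alternates with beta in the catalytic ring, was at 507 and 500, 409 and 405, and 731 and 718 CPM in the same order. It showed the same order of groups, with log2 fold changes of -0.31 ± 0.03 in Cop1 KO (adjusted p = 6.6e-13) and 0.53 ± 0.03 with LPS (adjusted p = 2.6e-22). Atp5g3, the c-ring gene with 100% unique windows, was at 102 and 102, 80.4 and 75.7, and 127 and 120 CPM. Cop1 KO was again lowest and LPS highest. Its log2 fold change was -0.39 ± 0.04 in Cop1 KO (adjusted p = 1e-10) and 0.28 ± 0.04 with LPS (adjusted p = 1.6e-07).

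The peripheral stalk holds the catalytic head still while the ring turns. Its subunit b, Atp5pb, was at 74.9 and 70.9 CPM in untreated wild type, 62.5 and 64.4 in Cop1 KO and 100 and 101 with LPS. Atp5o, the oligomycin sensitivity protein, was at 65.7 and 61.3, 51.0 and 51.9, and 85.9 and 75.0 CPM. Both were lowest in Cop1 KO and highest with LPS without overlap, and both were called in each comparison with untreated wild type. Of the exonic bases of Atp5o, 43.8% overlap the antisense entry Gm15976, and the library kit keeps no strand, so reads of the 2 cannot be told apart. The other stalk subunits Atp5h and Atp5j were not called in Cop1 KO, and neither were Atp5d and Atp5e of the central stalk, so the decrease did not cover the whole complex. The decreases of Atp5a1, Atp5b, Atp5g3, Atp5mpl, Atp5o and Atp5pb were called under all 4 scalings. The increases of Atp5a1, Atp5b, Atp5g3, Atp5o and Atp5pb with LPS were not: with library size alone their log2 fold changes were -0.04, -0.07, -0.29, -0.22 and -0.10.

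**Figure D2:**
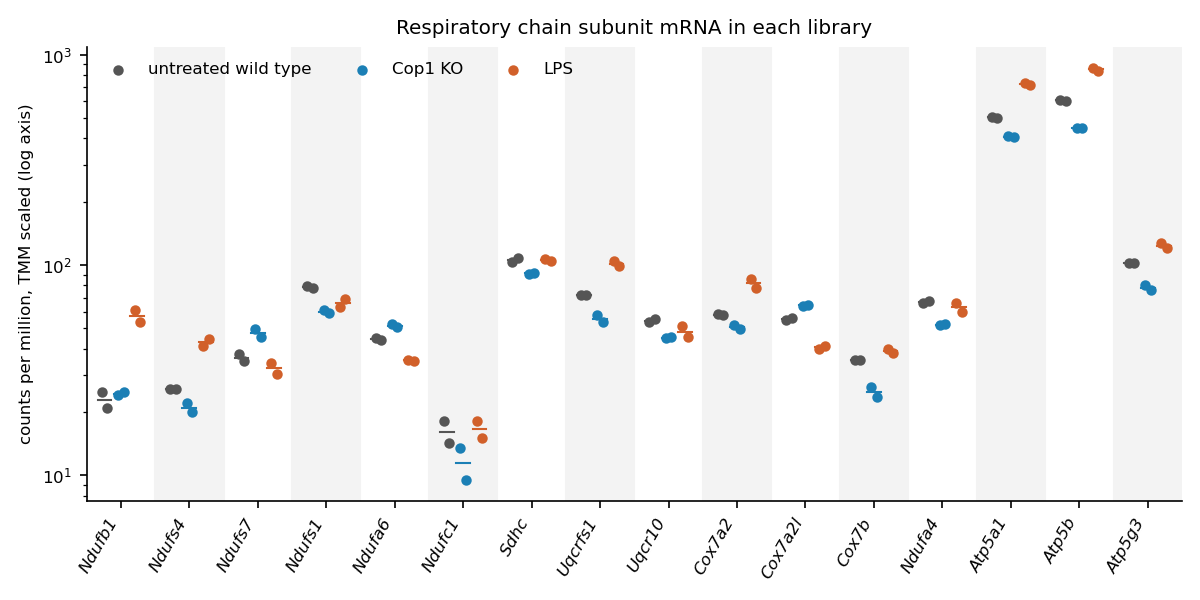
Level of 16 subunit mRNAs in each of the 6 libraries (y axis, TMM-scaled CPM, log axis), with points for libraries and short lines for the mean of each group of 2. Atp5b lies between 450 and 451 CPM in Cop1 KO, 602 and 612 in untreated wild type and 838 and 869 with LPS.

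Complex IV held the lowest fitted log2 fold change of the 79 genes in Cop1 KO. Cox7b, a small structural subunit encoded on the X chromosome, was at 35.4 and 35.3 CPM in untreated wild type, 26.4 and 23.5 in Cop1 KO and 39.9 and 38.3 with LPS. The Cop1 KO libraries lay below all others, with a log2 fold change of -0.50 ± 0.07 against untreated wild type (edgeR adjusted p = 1.9e-08), and the LPS difference of 0.15 ± 0.07 did not pass (adjusted p = 0.051). Ndufa4 was at 65.8 and 67.6, 52.0 and 52.3, and 66.3 and 59.6 CPM. It was lower in Cop1 KO by 0.36 ± 0.05 on the log2 scale (log2 fold change -0.36, adjusted p = 1.3e-07), with untreated wild type and LPS overlapping. Cox4i1 went the other way, at 267 and 267 CPM in untreated wild type, 301 and 290 in Cop1 KO and 324 and 300 with LPS. Both groups lay above untreated wild type, by 0.14 ± 0.03 in Cop1 KO (adjusted p = 0.00035) and 0.22 ± 0.04 with LPS (adjusted p = 1.4e-07). On library size alone these became -0.05 and -0.34, so neither direction held under all scalings.

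In complex III the Rieske iron-sulfur protein Uqcrfs1, which takes electrons from reduced coenzyme Q, changed most. It was at 72.0 and 72.1 CPM in untreated wild type, 57.7 and 53.7 in Cop1 KO and 104 and 99.1 with LPS. Cop1 KO was lowest and LPS highest without overlap, with log2 fold changes of -0.37 ± 0.05 (edgeR adjusted p = 9.7e-09) and 0.49 ± 0.05 (adjusted p = 3.6e-13). The decrease was called under all 4 scalings, and the increase became -0.07 with library size alone. Uqcr10, one of the small supernumerary subunits, was at 53.8 and 55.1, 44.9 and 45.5, and 51.1 and 45.5 CPM. Both comparisons with untreated wild type were lower, at -0.27 ± 0.06 (adjusted p = 9.3e-05) and -0.17 ± 0.06 (adjusted p = 0.01). The first held under all 4 scalings, while the LPS value of Uqcr10 was -0.03 with median-of-ratios factors and was not called there. Cyc1, the heme-bearing cytochrome c1, was at 70.4 and 69.0, 71.9 and 66, and 91.8 and 84.9 CPM. Only the LPS libraries of Cyc1 stood apart, with a log2 fold change of 0.34 ± 0.05 (adjusted p = 4e-08), while Cop1 KO gave -0.01 ± 0.05 (adjusted p = 0.83). That LPS increase too turned, to -0.22, with library size alone.

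Complex II is the only complex with all its subunits encoded in the nucleus, and it also serves as an enzyme of the citric acid cycle. Sdhc, a membrane anchor, was at 103 and 108 CPM in untreated wild type, 90.6 and 92.1 in Cop1 KO and 107 and 105 with LPS. At TMM scaling Sdhc was lower in Cop1 KO than in both other groups, by -0.21 ± 0.04 against untreated wild type (edgeR adjusted p = 3.6e-05). That call held under all 4 scalings. Against LPS the log2 fold change was also -0.21, and it became 0.16 with library size alone. The flavoprotein Sdha was at 213 and 215, 199 and 200, and 206 and 212 CPM, and was lower in Cop1 KO by a log2 fold change of -0.10 ± 0.04 (adjusted p = 0.012). With limma on log2(nRPKM + 1) that difference was 0.03. The iron-sulfur subunit Sdhb was at 97.7 and 95.7, 97.7 and 100, and 92.7 and 86.2 CPM, and was lower with LPS at -0.11 ± 0.05 (adjusted p = 0.028). Sdhd, the other anchor, was at 90.5 and 88.0, 90.1 and 89.1, and 109 and 98.4 CPM, and was higher with LPS at 0.22 ± 0.05 (adjusted p = 4.4e-05). These LPS directions of Sdhb and Sdhd turned under other scalings, to 0.03 with median-of-ratios factors and to -0.34 with library size alone.

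Complex I was mixed in Cop1 KO. Its 7 core subunits, which carry the flavin, the iron-sulfur clusters and the quinone site, held 4 lower and 1 higher calls. Ndufs7, which holds the last iron-sulfur cluster before the quinone, was at 37.6 and 35 CPM in untreated wild type, 49.7 and 45.6 in Cop1 KO and 34.3 and 30.3 with LPS. Cop1 KO was highest without overlap, with a log2 fold change of 0.40 ± 0.07 (edgeR adjusted p = 6.6e-07). It was the 1 subunit called higher in Cop1 KO under all 4 scalings. With LPS it was lower at -0.16 ± 0.07 (adjusted p = 0.037), a call lost with median-of-ratios factors at -0.02.

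Ndufs1, the largest core subunit, was at 79.2 and 78.0 CPM in untreated wild type, 61.0 and 59.1 in Cop1 KO and 62.9 and 68.8 with LPS. It was lower in both comparisons and under all 4 scalings, at -0.39 ± 0.05 in Cop1 KO (edgeR adjusted p = 3.2e-09) and -0.26 ± 0.05 with LPS (adjusted p = 2e-05). Among accessory subunits of the membrane arm, Ndufc1 was at 18.1 and 14.2, 13.5 and 9.45, and 18.1 and 15.0 CPM. The spread within its groups was wide, and its log2 fold change in Cop1 KO was -0.49 ± 0.12 (adjusted p = 0.00022). Ndufb2 was at 17.7 and 16.9, 13.3 and 12.6, and 18.4 and 17.1 CPM, with -0.42 ± 0.09 in Cop1 KO (adjusted p = 9.7e-05). Ndufa2, a thioredoxin-fold subunit of the NADH module, was instead higher in both, at 51.3 and 55.8, 67.0 and 61.9, and 67.2 and 57.7 CPM. Its log2 fold changes were 0.27 ± 0.06 (adjusted p = 0.0001) and 0.22 ± 0.06 (adjusted p = 0.001), and with library size alone they became 0.07 and -0.34.

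**Figure D3:**
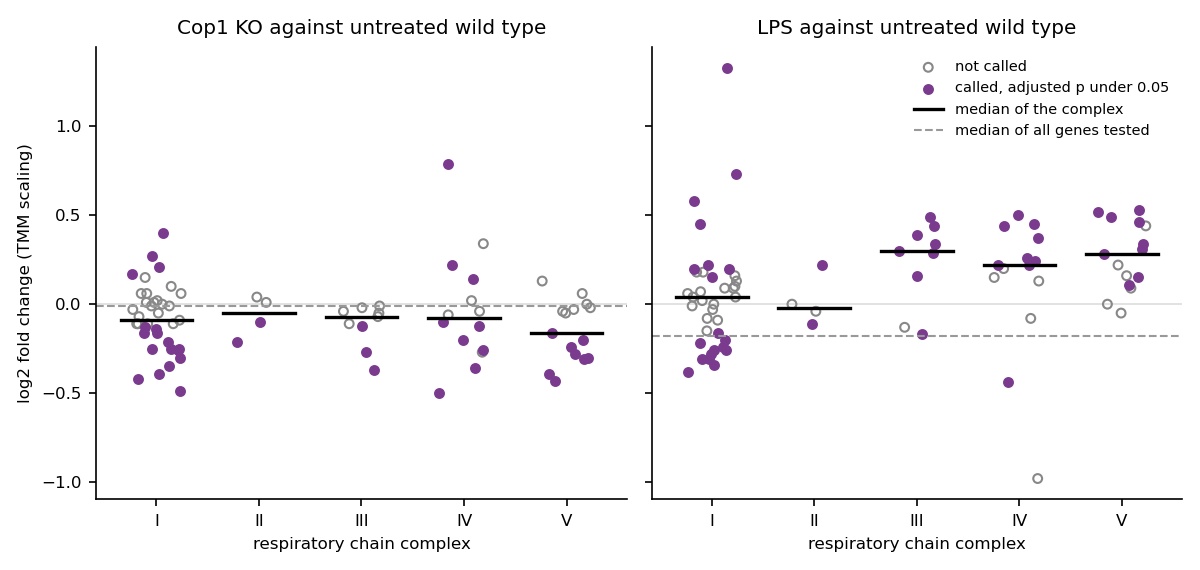
Log2 fold change of each tested subunit (points) in Cop1 KO (left) and LPS (right) against untreated wild type, by complex, at TMM scaling, with filled points called at an adjusted p under 0.05, black lines for the median of a complex and a dashed line for the median of all 15585 genes. In Cop1 KO the complex medians lie between -0.16 and -0.05, and with LPS they run from -0.02 for complex II to 0.30 for complex III, all above the median of all genes at -0.18.

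With LPS against untreated wild type, subunits stood above the typical gene, while their absolute direction depended on scaling. At TMM scaling 33 of 79 were higher, 14 lower and 32 not called. Among all genes 73.7% were called, 30.2% higher and 43.4% lower. The median of the subunits was 0.15 and that of all genes -0.18, a gap of 0.33. With library size alone the calls were 2 higher and 64 lower (median -0.42, beside -0.74 for all genes), and with median-of-ratios factors 49 were higher and 6 lower. Without LPS replicate 2 the lower calls fell from 14 to 9. That library had lower values than LPS replicate 1 for 63 of the 79 subunits. The median log2 ratio was -0.11, beside -0.0 over all genes. Replicate 2 was also lower for 49 subunits in untreated wild type and 47 in Cop1 KO, with medians of -0.02 and -0.05. Under all 4 scalings 2 subunits were higher and 6 lower, where 17.2% of all genes were higher and 36.4% lower.

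**Figure D4:**
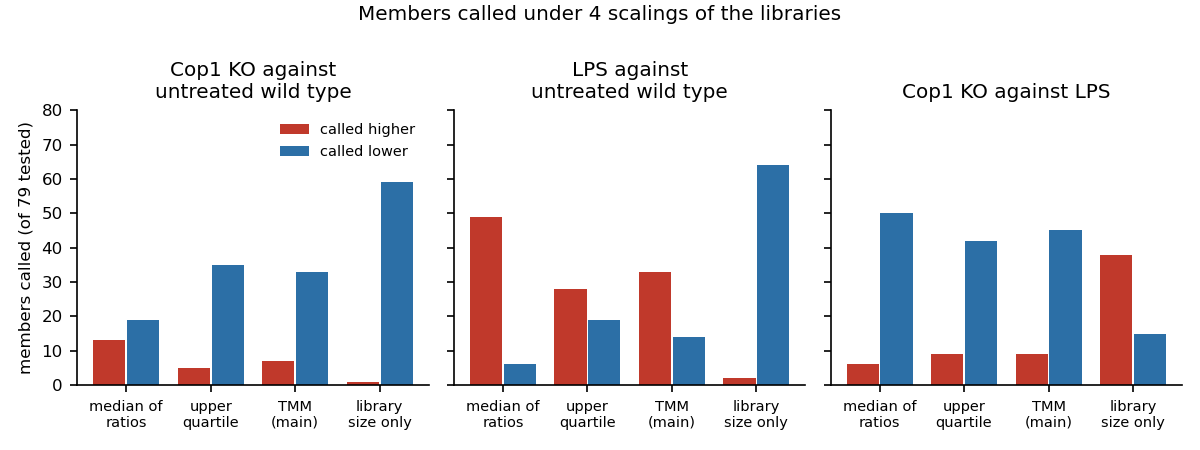
Number of the 79 tested subunits called higher and lower (y axis, bars) under 4 scalings of the libraries (x axis) in the 3 comparisons. For LPS against untreated wild type the counts go from 49 higher and 6 lower with median-of-ratios factors to 2 higher and 64 lower with library size alone.

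The complexes did not move evenly with LPS. Complex I had 8 higher and 11 lower calls with a median of 0.04, complex II 1 and 1, complex III 7 and 1 with a median of 0.30, complex IV 8 and 1 with 0.22, and complex V 9 and 0 with 0.28. With median-of-ratios factors complex I turned to 17 higher and 5 lower (median 0.18) and complex II to 3 and 0, and with library size alone to 2 and 32, and 0 and 4. All 4 catalytic and core subunits of complex III (Cyc1, Uqcrfs1, Uqcrc1 and Uqcrc2) were called higher at TMM scaling. With library size alone their log2 fold changes were -0.22, -0.07, -0.40 and -0.17. In each of complexes III, IV and V, 0 subunits were called higher with LPS under all 4 scalings. The 7 core subunits of complex I held 2 higher and 3 lower calls.

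Ndufs4, an accessory subunit of complex I whose loss in mice causes a fatal brain disease, was 1 of the 2 subunits called higher with LPS under all 4 scalings. It was at 25.8 and 25.7 CPM in untreated wild type, 22.0 and 20 in Cop1 KO and 41.1 and 44.6 with LPS. No group overlapped another, with log2 fold changes of 0.73 ± 0.07 with LPS (edgeR adjusted p = 2.1e-13) and -0.30 ± 0.08 in Cop1 KO (adjusted p = 0.00078). The decrease in Cop1 KO was called under all 4 scalings too.

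Ndufb1, the other of the 2, showed a larger increase with LPS, at 24.8 and 21.0 CPM in untreated wild type, 24.1 and 24.9 in Cop1 KO and 61.2 and 53.8 with LPS (log2 fold change 1.33 ± 0.07, edgeR adjusted p = 6.5e-23). RefSeq lists it as protein coding on chromosome 12, from 101968096 to 101975738 (GRCm38.p6), while GENCODE M21 lists that locus as Ndufb1-ps, a non-coding transcript from a bidirectional promoter. It overlaps Cpsf2, a pre-mRNA cleavage factor on the opposite strand, over 12.7% of its exonic bases. Cpsf2 was at 64.1 and 65.0 CPM in untreated wild type, 58.3 and 62.9 in Cop1 KO and 141 and 144 with LPS, a log2 fold change of 1.14 ± 0.05 (adjusted p = 8.2e-29). The value of Ndufb1 is therefore uncertain, and the part of Cpsf2 in it was not tested. Without Ndufb1, 32 subunits were higher with LPS at TMM scaling.

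The 6 subunits lower with LPS under all 4 scalings were Ndufa6, Ndufb8, Ndufb10, Ndufs1 and Ndufv3 of complex I and Cox7a2l of complex IV. Ndufa6, which docks the mitochondrial acyl carrier protein on complex I, was at 44.8 and 44.2 CPM in untreated wild type, 52.5 and 50.5 in Cop1 KO and 35.4 and 35 with LPS. The groups were separate with Cop1 KO highest, at 0.21 ± 0.06 in Cop1 KO (edgeR adjusted p = 0.0017) and -0.34 ± 0.06 with LPS (adjusted p = 6.4e-06). Its Cop1 KO increase was not called with library size alone, at 0.02. Ndufv3, an accessory subunit of the NADH module, was at 50.1 and 46.7, 47.2 and 47.3, and 39.0 and 35.2 CPM, with -0.38 ± 0.07 for LPS (adjusted p = 7.1e-07). Its Cop1 KO libraries lay between those of untreated wild type.

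Among the other increases with LPS, Cox7a2 was at 58.4 and 57.8 CPM in untreated wild type, 51.6 and 49.6 in Cop1 KO and 86.0 and 78.0 with LPS. Cox5a, a matrix-side subunit of cytochrome c oxidase, was at 74.1 and 73.7, 72.4 and 63.7, and 103 and 98.9 CPM. Both had LPS highest and Cop1 KO lowest without overlap. Their log2 fold changes with LPS were 0.50 ± 0.05 (edgeR adjusted p = 6e-12) and 0.45 ± 0.05 (adjusted p = 1.8e-11), and in Cop1 KO -0.20 ± 0.06 (adjusted p = 0.0017) and -0.12 ± 0.05 (adjusted p = 0.041). Uqcrb, known as the ubiquinone-binding protein of complex III, was at 5.60 and 5.37, 5.76 and 4.86, and 7.77 and 7.12 CPM, with 0.44 ± 0.15 for LPS (adjusted p = 0.0061). With library size alone the LPS differences of Cox7a2, Cox5a and Uqcrb were -0.07, -0.11 and -0.12. In Cop1 KO neither Cox7a2 nor Cox5a was called under all 4 scalings, with -0.11 and -0.03 under median-of-ratios factors.

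The Cox7a family differed in composition between the groups. Cox7a2l, also known as a factor that joins complexes III and IV into supercomplexes, was at 54.8 and 55.8 CPM in untreated wild type, 63.8 and 64.7 in Cop1 KO and 40.1 and 41.2 with LPS. Cop1 KO was highest and LPS lowest without overlap, with log2 fold changes of 0.22 ± 0.05 (edgeR adjusted p = 0.00048) and -0.44 ± 0.06 (adjusted p = 2.6e-09). The decrease held under all 4 scalings, and the increase was 0.02 with library size alone and not called. The shares within the family do not depend on that choice. As a share of the family's nRPKM, Cox7a2l held 37.1% and 38.1% in untreated wild type, 43.6% and 44.8% in Cop1 KO, and 22.8% and 25.5% with LPS. Cox7a2 held 60.2% and 60.3%, 53.8% and 52.3%, and 74.4% and 73.4%. The muscle isoform Cox7a1 took the remaining 1.17% to 2.88%. Only 49.1% of the coding windows of Cox7a2l were unique, and this property is the same in all libraries.

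**Figure D5:**
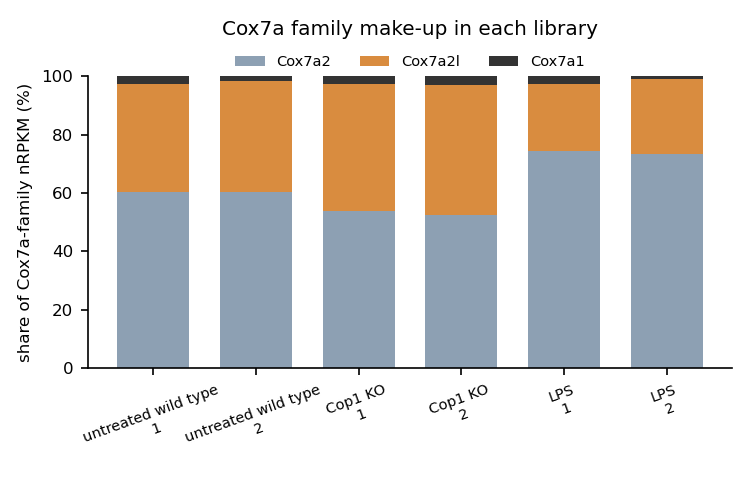
Share of the summed nRPKM of the Cox7a family (y axis, %) held by Cox7a2, Cox7a2l and Cox7a1 in each of the 6 libraries. Cox7a2l falls from 43.6% and 44.8% in Cop1 KO through 37.1% and 38.1% in untreated wild type to 22.8% and 25.5% with LPS.

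Both comparisons share the untreated wild-type libraries and are not independent. Of all genes 30.3% were lower in Cop1 KO and 30.2% higher with LPS. The share of all genes in each joint class was not counted. The joint counts are therefore a description and are not read as a trait of these subunits. Side by side at TMM scaling, 14 subunits were lower in Cop1 KO and higher with LPS, among them Ndufa1, Ndufs4, Uqcrc2, Uqcrfs1, Cox5a, Cox6b1, Cox6c, Cox7a2, Atp5a1, Atp5b, Atp5g3, Atp5o and Atp5pb. Of these, Ndufs4 alone was called in both comparisons under all 4 scalings, and the others had negative LPS values with library size alone. The reverse was found at TMM scaling for 3, namely Ndufa6, Ndufs7 and Cox7a2l, none of which held both calls under all 4. Another 6 were lower in both (Ndufb5, Ndufb8, Ndufc2, Ndufs1, Ndufs8 and Uqcr10), 2 were higher in both (Ndufa2 and Cox4i1), and 17 were called in neither.

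Cop1 KO and LPS were also compared directly. At TMM scaling 45 of 79 subunits were lower in Cop1 KO than with LPS, 9 higher and 25 not called, with a median of -0.21 beside 0.03 for all genes. Of all genes 79.6% were called, 39.9% higher and 39.6% lower. This turned, on library size alone, to 38 higher and 15 lower. Under all 4 scalings 15 were lower and 6 higher, where 29.9% of all genes were lower and 37.7% higher. Among called subunits at a mean of 5 CPM or more, the largest differences were those of Ndufb1 (log2 fold change -1.23 ± 0.08, edgeR adjusted p = 2.8e-21), Ndufs4 (-1.03 ± 0.08, adjusted p = 5.7e-18) and Atp5b (-0.92 ± 0.03, adjusted p = 5e-33) on the low side. On the high side stood Cox7a2l (0.66 ± 0.06, adjusted p = 1.1e-14), Ndufs7 (0.56 ± 0.07, adjusted p = 5e-10) and Ndufa6 (0.55 ± 0.06, adjusted p = 6e-11). All of these kept their call under all 4 scalings. By complex the calls were 7 higher and 14 lower in complex I, and 1 and 2 in complex II. They were 0 and 7 in complex III, 1 and 10 in complex IV, and 0 and 12 in complex V.

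Start-site sequences of the subunit genes were read from the RefSeq promoter table (GRCm38.p6), which held windows of 300 bases, 250 before and 50 after the start site, for 68 of the 83 genes. Exact matches on either strand were sought for 4 short motifs of factors known from mitochondrial genes. The NRF1 core GCATGCGC was in 13.7% of the 73 windows, beside 2.71% of all 32851 windows in the table and 3.52% of the 21263 windows of protein-coding genes. The YY1 core AAGATGGC was in 13.7%, beside 2.75% of all and 3.05% of coding windows. The ERR motif AAGGTCA was in 11%, beside 4.72% and 4.08%, and the ETS (GABP) motif CCGGAAGT in 6.85%, beside 3.89% and 5.15%. NRF1 cores were found in 3 complex I, 1 complex II, 2 complex III, 1 complex IV and 3 complex V genes. YY1 cores were in 7 complex I and 3 complex V genes. No matches of different motifs overlapped, and a match of letters is no measurement of binding.

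The 8 genes with an NRF1 core wholly before the start site are shown because the motif and its reverse complement GCGCATGC overlap in 4 of them, Atp5g2, Atp5k, Cox6a1 and Ndufa11. Each stretch has 40 bases on the gene's strand, 5′ to 3′, with the match in capitals.
Atp5g2 (chr15:102671065-102671104, minus strand): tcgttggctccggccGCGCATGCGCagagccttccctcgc
Atp5k (chr5:108434425-108434464, minus strand): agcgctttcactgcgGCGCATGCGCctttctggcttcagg
Atp5l (chr9:44920953-44920992, minus strand): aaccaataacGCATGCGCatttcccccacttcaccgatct
Cox6a1 (chr5:115349096-115349135, minus strand): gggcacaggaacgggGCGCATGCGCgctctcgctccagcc
Ndufa11 (chr17:56717687-56717726, plus strand): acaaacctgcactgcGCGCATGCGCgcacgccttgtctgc
Ndufa6 (chr15:82354351-82354390, minus strand): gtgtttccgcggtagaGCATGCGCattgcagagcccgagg
Ndufa8 (chr2:36049339-36049378, minus strand): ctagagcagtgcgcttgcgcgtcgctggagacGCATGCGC
Sdhb (chr4:140961201-140961240, plus strand): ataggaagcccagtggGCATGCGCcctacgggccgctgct

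Most of the YY1 cores lay shortly after the start site. Of the 10 matches in subunit windows, 8 (80%) lay on the gene's strand after the start site, 22 to 38 bases in, compared with 30.6% of the 927 matches in all windows. In all 8 the ATG inside the motif was an annotated start codon in GENCODE M21, against 168 of the 284 such matches in all windows (59.2%). The 8 stretches of 28 bases, which include Ndufs4, Ndufs7, Ndufb8 and Ndufc1 described above, are printed the same way to show this shared start.
Atp5j2 (chr5:145191501-145191528, minus strand): ccaggacttcAAGATGGCgtcactcggt
Ndufa3 (chr7:3617385-3617412, plus strand): cgccaagaacAAGATGGCcgggagtaag
Ndufa9 (chr6:126849098-126849125, minus strand): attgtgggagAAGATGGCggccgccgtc
Ndufb8 (chr19:44555393-44555420, minus strand): aaccgcggagaaggtgAAGATGGCtgcc
Ndufc1 (chr3:51408916-51408943, minus strand): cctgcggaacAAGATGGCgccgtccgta
Ndufs4 (chr13:114388045-114388072, minus strand): gtttgcctacaggAAGATGGCggcggtc
Ndufs6 (chr13:73328433-73328460, minus strand): gggtcaccggcAAGATGGCggcggtgct
Ndufs7 (chr10:80249463-80249490, plus strand): ggccgaggccAAGATGGCggcgctggcg

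The calls of the 10 genes with a YY1 core were mixed at TMM scaling. Ndufs4 and Atp5pb were lower in Cop1 KO and higher with LPS, Ndufs7 was the reverse, Ndufb8 was lower in both, Ndufc1 was lower in Cop1 KO alone, Ndufa3 and Atp5j were higher with LPS alone, and Ndufa9, Ndufs6 and Atp5j2 were called in neither. The transcripts of the factors themselves were measured too. Yy1 was at 49.0 and 50.4 CPM in untreated wild type, 49.8 and 50.8 in Cop1 KO and 43.8 and 41.3 with LPS, and Nrf1 at 20.9 and 21.5, 22.7 and 20.9, and 22.2 and 19.6 CPM. Nrf1 overlapped between all groups, and Yy1 was lower with LPS (log2 fold change -0.22 ± 0.06, edgeR adjusted p = 0.001). That value of Yy1 is close to the median of -0.18 over all genes. With library size alone Yy1 was at -0.79, beside -0.74 for all genes. Of the GABP factors, Gabpa was lower in Cop1 KO (-0.17 ± 0.06, edgeR adjusted p = 0.012) and higher with LPS (0.22 ± 0.06, adjusted p = 0.00095). The LPS value of Gabpa was -0.35 with library size alone, and its exons overlap Atp5j on the opposite strand. Gabpb1 was higher with LPS (0.92 ± 0.08, adjusted p = 7.9e-15), and at 0.36 with library size alone. Esrra, an ERR factor, is given below.

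Other genes of the chain and its supply were read from lists of known members. Of the 13 subunits encoded by mitochondrial DNA 8 were tested, and ND3, ND4L, COX3, ATP6 and ATP8 had 9 counts or fewer in all. In Cop1 KO 3 were higher and 0 lower, and with LPS 1 was higher and 6 lower at TMM scaling. For these and the list counts that follow, the shares over all genes were 28.1% higher and 30.3% lower in Cop1 KO, and 30.2% higher and 43.4% lower with LPS. COX1, the catalytic core of complex IV, was at 1490 and 1500 CPM in untreated wild type, 1870 and 2070 in Cop1 KO and 1590 and 1800 with LPS. It was higher in both, at 0.40 ± 0.03 (edgeR adjusted p = 1.5e-14) and 0.18 ± 0.04 (adjusted p = 1e-05). With library size alone the LPS value of COX1 was -0.38. The list then had 1 higher and 6 lower in Cop1 KO and 0 higher and 7 lower with LPS. The Cop1 KO direction of the list therefore depends on scaling. With LPS at TMM scaling the median of the list was -0.18, the same as the -0.18 over all genes. No decrease of the list beyond the typical gene is read from these counts. Levels of mitochondrial transcripts after poly(A) selection were not compared with those of nuclear subunits.

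Assembly factors help build the complexes without staying in them. With LPS, of 26 complex IV factors 10 were higher and 12 lower, of 16 complex I factors 3 higher and 8 lower, and of 10 factors for complexes II and III 1 higher and 6 lower (median -0.88). All 4 ATP synthase factors were lower at TMM scaling. Their log2 fold changes ran from -1.06 to -0.23, the last near the median of -0.18 over all genes. The lower counts for complexes I and IV stand near the 43.4% of all genes. With median-of-ratios factors the counts were 11 higher and 9 lower for complex IV and 6 and 6 for complex I, so no direction is given for these lists. The list for complexes II and III had 2 higher and 6 lower there. Sco1, a copper chaperone of complex IV, was at 9.29 and 9.06 CPM in untreated wild type, 9.32 and 9.98 in Cop1 KO and 87.5 and 99.3 with LPS (log2 fold change 3.35 ± 0.09, edgeR adjusted p = 4.9e-40). Coa5 was at 130 and 125, 131 and 129, and 429 and 453 CPM (1.79 ± 0.04 with LPS, adjusted p = 1.3e-42). Neither differed between Cop1 KO and untreated wild type beyond the test (adjusted p = 0.59 and 0.53). Ndufaf7 and Tmem126b of complex I assembly were lower with LPS at -1.31 ± 0.14 (adjusted p = 1.1e-12) and -1.41 ± 0.16 (adjusted p = 2.3e-12).

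The citric acid cycle and pyruvate dehydrogenase list had 15 of 20 genes lower and 0 higher in Cop1 KO, where 30.3% of all genes were lower, with a median of -0.35 beside -0.01 for all genes. Between 14 and 19 were lower in Cop1 KO over the 4 scalings. With LPS 10 were lower and 5 higher, near the shares over all genes, and with median-of-ratios factors 7 and 6. Idh3a, which makes NADH for complex I, was at 48.6 and 50.3 CPM in untreated wild type, 27.7 and 29.2 in Cop1 KO and 39.1 and 40 with LPS, with -0.80 ± 0.06 in Cop1 KO (edgeR adjusted p = 6e-16). Idh2 was lower in both, at -0.57 ± 0.06 (adjusted p = 4e-12) and -1.04 ± 0.07 (adjusted p = 1.4e-20). Among carriers 5 of 8 were lower and 1 higher in Cop1 KO, and the ADP/ATP exchanger Slc25a4 was at 183 and 180, 129 and 131, and 161 and 146 CPM. The 1 higher was Ucp2, at 989 and 995, 1070 and 1030, and 487 and 471 CPM. Its log2 fold changes were 0.08 ± 0.03 in Cop1 KO (adjusted p = 0.011 in edgeR) and -1.05 ± 0.03 with LPS (adjusted p = 6.4e-36). With library size alone the Cop1 KO value of Ucp2 turned to -0.11.

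Among the remaining lists, Gpd2, which feeds electrons from glycerol 3-phosphate to coenzyme Q, was at 22.9 and 23.9 CPM in untreated wild type, 15.6 and 15.6 in Cop1 KO and 145 and 151 with LPS. Its log2 fold changes were -0.59 ± 0.08 (edgeR adjusted p = 1.9e-09) and 2.66 ± 0.06 (adjusted p = 7.4e-42). Coq10a of the same list was at 27.3 and 24.3, 25.3 and 24.6, and 5.76 and 7.24 CPM, lower with LPS at -1.99 ± 0.12 (adjusted p = 3.1e-23). The electron carrier list as a whole had 2 higher and 7 lower of 20 in Cop1 KO and 8 higher and 9 lower with LPS. Of 16 regulators of mitochondrial biogenesis tested 3 were higher and 3 lower in Cop1 KO, and 7 and 7 with LPS. The nuclear receptor Esrra was at 47.5 and 44.6, 57.8 and 55.0, and 109 and 103 CPM, higher in both comparisons. Polg2, an accessory subunit of the mitochondrial DNA polymerase, was at 10.5 and 11.2, 15.6 and 13.9, and 36.4 and 40.1 CPM, also higher in both. Ppargc1a, a coactivator known for driving mitochondrial biogenesis, was at 9.64 and 9.32 CPM in untreated wild type, 0.99 and 0.706 in Cop1 KO and 5.76 and 5.92 with LPS. Its log2 fold changes were -3.48 ± 0.26 (adjusted p = 1.3e-21 in edgeR) and -0.70 ± 0.14 (adjusted p = 1.9e-05). The summed astrocyte and neuron markers were also low in Cop1 KO, as given above, and their part in this value was not tested. In the 27 genes of mitochondrial translation the calls were 4 higher and 5 lower in Cop1 KO and 5 and 11 with LPS, and among 20 import genes 1 and 8, and 5 and 6. Of 23 glycolysis genes 6 were higher and 13 lower in Cop1 KO and 8 and 10 with LPS, where the hexokinase Hk3 was at 2020 and 1890 CPM against 547 and 531 in untreated wild type. Beside 30.2% higher and 43.4% lower over all genes, the counts lower with LPS in the electron carrier, translation and glycolysis lists are near that share.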

How the data were processed

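RNA-seq of poly(A) RNA from 6 libraries was used, 2 in each of 3 groups taken from the treatment labels. Libraries came from an Illumina TruSeq kit that keeps no strand, read single-end, per the labels' protocols. The authors aligned with GSNAP to GRCm38, per the submitters' processing notes; the version and annotation were not given in the sources used here. Deposited counts are reads aligned uniquely to a gene model, per the file headers. Deposited RPKM values (nRPKM) are scaled per kilobase, depth and a size factor, per the file headers, and their ratio to the counts between libraries is the same for every gene.

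Of 36528 identifiers 31049 took names from RefSeq and 5479 had none, which held 1.075% to 1.307% of counts. Of 96 symbols matched, 4 were left out for -ps names, 3 as RefSeq pseudogenes (Ndufa11b, Ndufs6b, Cox6c2) and 6 for low counts. Counts were fitted in R 4.3.3 with edgeR 4.0.16: filterByExpr (15585 genes), TMM, a single quasi-likelihood fit of all libraries with 3 residual degrees of freedom, Benjamini-Hochberg adjustment over genes and no fold minimum. The biological coefficient of variation was 2.7%. Each SE was computed from the fit's weights and dispersion. Alternatives were other scalings, no filter, DESeq2 1.42.0, limma 3.58.1 on log2(nRPKM + 1) and log2(nRPKM + 0.1), the compared groups alone and each library left out. The fit was tested on simulated data. Tables and figures used Python 3.11.15. Uniqueness and overlaps used GENCODE M21 (GRCm38), and promoters RefSeq GRCm38.p6. Named genes were, per complex and comparison with untreated wild type, up to 2 called increases and 2 decreases at a mean of 5 CPM or more without overlap, the most abundant subunit, tissue isoforms, complex II, Cyc1, genes of opposite calls, untested genes, the 3 largest differences each way between Cop1 KO and LPS, and up to 2 genes of each list by smallest p. Ndufs1 and other genes outside this rule, such as Ppargc1a, Yy1, Nrf1, Gabpa and Gabpb1, were named after their values were seen. The genes, lists and rules were chosen with earlier results of these data known. The values of 1 subunit gene are not reported here, although it stays in the fits and counts.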

Additional observations from a re-analysis of the deposited data

How the results depend on the processing

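Counts of called subunits moved mostly with the scaling of the libraries. In Cop1 KO against untreated wild type (7 higher and 33 lower) they were 13 and 19 with median-of-ratios factors, 1 and 59 with library size alone, 11 and 9 with limma on log2(nRPKM + 1) and 11 and 10 on log2(nRPKM + 0.1), with 9 lower in DESeq2. With LPS (33 and 14) they were 2 and 64 with library size alone, and the lower calls were 6 with median-of-ratios factors, the compared groups alone and limma at either pseudocount, and 3 in DESeq2. In Cop1 KO against LPS (9 and 45) they were 38 and 15 with library size alone, with 5 higher in DESeq2. Under all 4 scalings together, a rule added after seeing the data, the calls were 1 and 19, 2 and 6, and 6 and 15. The subunit counts without Ndufb1, without the 7 genes of low uniqueness and with the 3 RefSeq pseudogenes, also added then, stayed within 1.5 times. Leaving out single libraries gave 19 to 33 lower in Cop1 KO, 9 to 17 lower with LPS, and 15 to 29 higher list genes in Cop1 KO. The lone library of a group is assumed to vary like the others.

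The genes of the 12 other lists (27 higher and 69 lower in Cop1 KO) gave 45 higher with median-of-ratios factors, 7 and 128 with library size alone, 50 and 38 with limma at + 1, 49 and 38 at + 0.1, and 35 lower in DESeq2. With LPS (55 and 93) they gave 16 and 163 with library size alone and 47 lower in DESeq2, and in Cop1 KO against LPS (74 and 76) 119 and 38 with library size alone.

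The following log2 fold changes of named subunits changed sign and were called before or after the change, and values called in neither fit are not listed. In Cop1 KO against untreated wild type on library size alone they were Cox4i1 -0.05, Sdhb -0.16 and Sdhd -0.19. Those of LPS against untreated wild type on library size alone were Atp5a1 -0.04, Atp5b -0.07, Atp5g3 -0.29, Atp5o -0.22, Atp5pb -0.10, Cox4i1 -0.34, Cox5a -0.11, Cox6b1 -0.34, Cox6c -0.19, Cox7a2 -0.07, Cox7b -0.42, Cyc1 -0.22, Ndufa1 -0.41, Ndufa2 -0.34, Ndufb2 -0.52, Ndufc1 -0.52, Sdhc -0.56, Sdhd -0.34, Uqcrb -0.12, Uqcrc2 -0.17, Uqcrfs1 -0.07 and Uqcrh -0.26. For Cop1 KO against LPS on library size alone the values were Cox4i1 0.29, Cox6b1 0.05, Cyc1 0.01, Ndufa1 0.07, Ndufa4 0.10, Sdha 0.31, Sdhc 0.16, Sdhd 0.16, Uqcr10 0.27 and Uqcrh 0.03. With median-of-ratios factors, those in LPS against untreated wild type were Sdha 0.11 and Sdhb 0.03. With DESeq2, those in LPS against untreated wild type were Sdha 0.11 and Sdhb 0.03. With the compared groups alone, those in LPS against untreated wild type were Sdha 0.11 and Sdhb 0.03. With limma on log2(nRPKM + 1), those in Cop1 KO against untreated wild type were Cox5a 0.01, Cox6b1 0.03, Sdha 0.03 and Uqcrc2 0.01. With limma on log2(nRPKM + 1), those in LPS against untreated wild type were Sdha 0.12 and Sdhb 0.05. With limma on log2(nRPKM + 0.1), those in Cop1 KO against untreated wild type were Cox5a 0.01, Cox6b1 0.03, Sdha 0.03 and Uqcrc2 0.01. With limma on log2(nRPKM + 0.1), those in LPS against untreated wild type were Sdha 0.13 and Sdhb 0.05. Relative to the median subunit, Cox4i1 in Cop1 KO against LPS was 0.13. Sdhc and Sdhd stood there at 0.00 after rounding, so no change of sign is read for them. Beyond the construction of each scaling the cause was not tested. No paired analysis was possible because the labels give no replicate numbers that the groups share. The order of levels by CPM per kilobase is that of nRPKM by construction. Depth limits the 4 genes outside the low-count filter, where 3 counts equal 0.133 to 0.146 CPM before TMM factors.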
